A study of Mus musculus with 24 samples.

Results

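Immediate early response genes are transcribed within minutes of a stimulus, from promoters whose factors are already in place, and most of their mRNAs and proteins are short-lived. The 10 genes described here are Egr1, Fos, Fosb, Jun, Junb, Ier2, Ier3, Atf3, Dusp1 and Zfp36. They were taken from a list of symbols, matched to Ensembl identifiers in the deposited gene count tables, and all 10 were found among the 54146 genes listed. All 10 also passed the filter on low counts in both experiments, which left 15602 genes in the genotype experiment and 15467 in the inhibitor experiment.

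The study asked what the Mediator kinases CDK8 and CDK19, paralogous cyclin-dependent kinases of the Mediator coactivator complex, do in the intestinal epithelium. RNA was sequenced from mouse intestinal organoids, which are epithelial cultures grown in a gel, in 2 experiments of 12 libraries, with 3 libraries in each of 8 groups. The genotype experiment had WT, Cdk8-/-, Cdk19-/- and double knockout (Cdk8-/-/Cdk19-/-) organoids, all lysed after 7 days in 600 nM 4-hydroxytamoxifen, so that the WT libraries carry that exposure as well. The inhibitor libraries carry the same extraction text, so whether they were exposed to it is not known. The inhibitor experiment had organoids that the paper calls WT. They were given Senexin B, a small-molecule inhibitor of both kinases, or the solvent DMSO, for 16 h or 24 h. Comparisons within an experiment share control libraries, and the experiments share none. Cdk8 was deleted by a tamoxifen-inducible Cre recombinase under the Villin promoter, which is active in the intestinal epithelium, and cells that escape recombination can persist in such cultures. Cdk19 was disrupted with Cas9 and a guide RNA carried by a lentivirus, after which organoids were selected with an antibiotic and picked singly, so that each such line may stem from few cells. The labels call the replicates biological without saying what each came from. The p-values thus set group differences against the spread between these cultures and reach no further than them.

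Counted reads per library ran from 14636861 to 15473180 in the genotype experiment and from 27075937 to 28405118 in the inhibitor experiment. The libraries differed in kind. In the median library of the genotype experiment, the median gene above a read minimum had 49.8% of its strand-assigned reads on the counted strand, as in a kit that does not keep strand. In the inhibitor experiment this share was 92.2%. A label there describes total RNA depleted of ribosomal RNA, although the extraction text common to all libraries describes oligo(dT) beads. The 2 experiments were therefore normalised separately, and levels are not compared between them by any test.

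The labels name intestinal organoids as the source, but a cell type entry on the genotype libraries reads 4T1, the name of a mammary tumour line. The intestinal markers were present in every library. All 7 epithelial markers were detected throughout, and the intestine-specific Vil1 and Cdx2 reached 946 ± 39.7 and 294 ± 4.23 CPM (counts scaled to the normalised library size) in WT organoids (SD, n = 3), so the tissue entry is used here. Summed over 6 fibroblast markers, the level was between 0.0683 and 3.05 CPM in all 24 libraries.

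The targeted genes were read first. Cdk8 stood at 42.5, 43.2 and 35.8 CPM in WT and at 45.8, 57.3 and 42.4 CPM in the Cdk8-/- libraries, and at 47.3, 44.1 and 43.2 CPM in the double knockout. Deletion of a single exon leaves the rest of the transcript to be counted, so whole-gene counts cannot test the Cdk8 label. Cdk19 was at 47.6, 50.1 and 48.6 CPM in WT, at 48.8, 28.1 and 28.3 CPM in the libraries labelled Cdk19-/-, and at 27.0, 23.8 and 51.7 CPM in those labelled double knockout. Replicate 1 of Cdk19-/- and replicate 3 of the double knockout thus had WT levels of Cdk19, whereas the other 4 libraries labelled as lacking it were lower. The distance between libraries was read as chi-square per degree of freedom over counts. Cdk19-/- replicate 1 was nearer to the WT libraries (14.68, 15.34 and 21.1) than to its own group (23.45 and 24.72). Replicate 3 of the double knockout was nearer to replicate 3 of Cdk8-/- (14.43) than to its own group (35.85 and 22.38). To replicates 1 and 2 of Cdk8-/- it stood at 32.38 and 51.56. Replicate 2 of the double knockout, with Cdk19 at 23.8 CPM, was nearer still to replicate 3 of Cdk8-/- (10.69), so this nearness is not particular to replicate 3. These values do not show what the 2 libraries are. Calls of members and counts over gene lists are thus also given without both, an alternative chosen after seeing the data. Group names below are those of the labels.

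The 10 genes fall into a few roles. Egr1 encodes a zinc finger transcription factor induced by growth factors through ERK signalling and serum response factor (SRF). Fos, Fosb, Jun and Junb encode subunits of the AP-1 transcription factor, and Atf3 encodes a stress-induced leucine zipper partner of that family. Ier2 and Ier3 encode a nuclear regulator and an anti-apoptotic protein. Dusp1 encodes a phosphatase that switches off MAP kinases, and Zfp36 encodes tristetraprolin, which speeds the decay of mRNAs with AU-rich elements, so both act as negative feedback. In the intestine these genes respond to EGF, injury and feeding, and cell handling itself can induce them.

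Per kilobase of exon, the mean levels in WT organoids ran from 86.0 CPM per kb for Ier2 and 61.8 for Junb, through 30.9 for Zfp36, 25.8 for Jun, 20.9 for Ier3, 15.9 for Egr1 and 10.9 for Fos, down to 2.55 for Atf3, 1.98 for Dusp1 and 0.187 for Fosb. In organoids in DMSO for 16 h, Ier2 at 60.8 and Junb at 54.1 CPM per kb again led and Fosb at 0.108 was again lowest. Several neighbours in this order, such as Ier2 and Junb in DMSO, lay within the spread of each other's libraries. Fosb rested on 6 to 36 reads a library, so that only large differences would be seen in it.

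Egr1 was the single member that differed between WT and double knockout organoids at the threshold used, an adjusted p under 0.05. It stood at 58.0, 63.0 and 92.6 CPM in the 3 WT libraries and at 10.2, 14.5 and 21.97 CPM in the 3 libraries labelled double knockout, or 71.2 ± 18.7 against 15.5 ± 5.97 CPM (SD, n = 3). The library at 21.97 CPM is replicate 3, which had WT levels of Cdk19. Every library labelled double knockout was below every WT library, and the groups did not overlap. In bulk RNA, fewer cells with Egr1 mRNA and less Egr1 mRNA per cell cannot be told apart. The level was 4.57-fold lower, a log2 fold change of -2.19 with a standard error (SE) of 0.39 (adjusted p = 0.00335, edgeR quasi-likelihood test, lower in 3 of 3 libraries). That is 1 of 10 members called, where 17.3% of all genes tested were called in the same comparison, so the share of members called was not above that of all genes. Egr1 lay at rank 84 of 15602 genes from the most lowered. Without replicate 3 of the double knockout and replicate 1 of Cdk19-/-, its log2 fold change was -2.53 and the adjusted p from edgeR 0.00421. Members called were then 3 of 10, Egr1, Atf3 and Ier2, beside 19.0% of all genes.

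In Cdk8-/- organoids Egr1 was at 59.0, 33.2 and 18.0 CPM. One library of the 3 was at the level of the lowest WT library and the others were below all WT libraries, so the groups overlapped. The log2 fold change was -0.96 (SE 0.37, adjusted p = 0.16, edgeR), with 0 of 10 members called where 5.15% of all genes were; at an unadjusted p under 0.05 there were 3 members, Egr1, Atf3 and Ier3, and DESeq2 called 1, Atf3. Without replicate 1 of Cdk8-/-, Egr1 had a log2 fold change of -1.48 and an adjusted p of 0.0479 by edgeR. With all libraries and no filter on low counts it was called too (-0.97, SE 0.23, adjusted p = 0.00527, edgeR), so the call depended on the filter as well as on the libraries kept.

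In the libraries labelled Cdk19-/-, Egr1 was at 98.4, 64.3 and 74.3 CPM, over the range of WT. The log2 fold change was 0.15 (SE 0.36, adjusted p = 0.94, edgeR). Of the 10 members 0 were called, and 0% of all genes (0 of 15602); at an unadjusted p under 0.05 there were 0 members and 1691 genes, and DESeq2 called 0 members and 309 genes. Without replicate 1, the Cdk19-/- library with WT counts of Cdk19, 521 genes were called, and without both libraries with such counts Egr1 had -0.025 (SE 0.37).

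The double knockout was also set against Cdk8-/-. Loss of CDK19 cannot be told apart there from the lentivirus, antibiotic selection and single picking used to disrupt Cdk19. Egr1 had a log2 fold change of -1.24 (SE 0.39, adjusted p = 0.18, edgeR). The count was 0 of 10 members, against 0.0256% of all genes, or 4 of 15602. Egr1 alone passed an unadjusted p under 0.05, and DESeq2 called 0 members. Without replicate 3 of Cdk8-/- the log2 fold change was -1.56 (adjusted p = 0.0268, edgeR), with 839 of 15879 genes called in place of 4, and without replicate 1 it was -0.72. By chi-square per degree of freedom over counts, replicate 3 of Cdk8-/- stood at 10.69 and 14.43 from replicates 2 and 3 of the double knockout. It was further from the other libraries of its own group (15.79 and 35.24). Replicates 2 and 3 of the double knockout were also nearer to it than to their own group (22.38 to 35.85). Without the 2 libraries with WT Cdk19 counts Egr1 had -1.56 (SE 0.43, adjusted p = 0.145, edgeR). With no filter on low counts Egr1 was called (-1.23, SE 0.23, adjusted p = 0.00238, edgeR).

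The departure from additivity asks whether the difference of the double knockout group from WT equals the sum of those of the single knockout groups on the log scale. For Egr1 it was -1.39 (SE 0.53, adjusted p = 0.26, edgeR). Here too 0 of 10 members were called, with 0.0256% of all genes called. Egr1 and Jun were the 2 members with an unadjusted p under 0.05, and DESeq2 called 0. The 4 genes called in all became 490 with DESeq2 and 467 without replicate 1 of Cdk19-/-. Without the 2 libraries with WT Cdk19 counts 728 genes were called, and Egr1 had -1.53 (SE 0.56, adjusted p = 0.16, edgeR). With no filter on low counts 566 of 29805 genes were called, Egr1 among them (-1.39, SE 0.32, adjusted p = 0.00962, edgeR), so whether the Egr1 level of the double knockout passes as lower than the sum of the single knockouts depends on the filter.

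**Figure D1:**
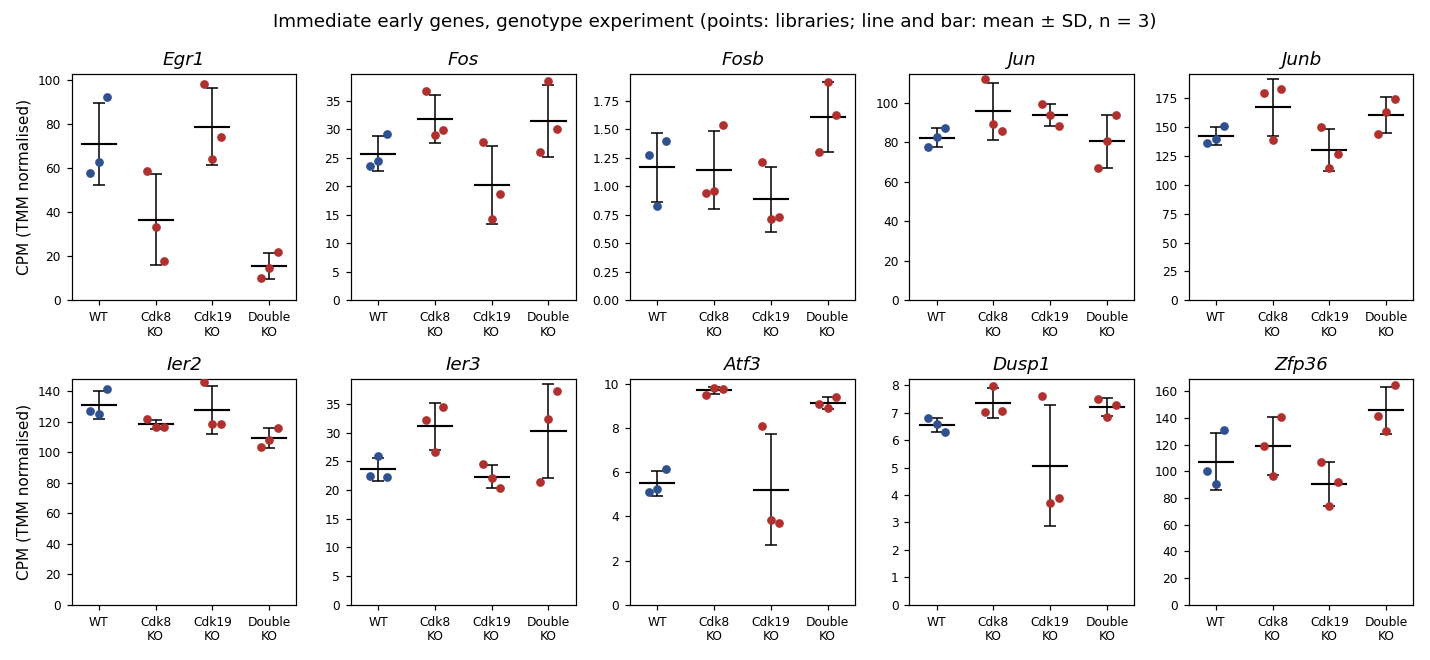
Normalised levels of the 10 immediate early genes in CPM (vertical axes, from 0) in each library of the genotype experiment; points are libraries, with red for the knockout groups, and lines and bars are means and SD (n = 3). Egr1 in the libraries labelled double knockout lies between 10.2 and 21.97 CPM, below all WT libraries at 58.0 to 92.6 CPM, while the AP-1 genes overlap.

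None of the 4 AP-1 genes was called in the double knockout, where Egr1 was. Fos stood at 23.6, 24.4 and 29.2 CPM in WT and at 25.9, 38.4 and 30.1 CPM in the double knockout, with a log2 fold change of 0.29 (SE 0.21, adjusted p = 0.38, edgeR). Jun was at 77.4, 82.6 and 87.3 CPM in WT and at 67.1, 80.6 and 93.6 CPM in the double knockout. Junb was at 136, 139 and 151 CPM and at 144, 163 and 174 CPM in the same groups. For all 3 genes the double knockout libraries overlapped those of WT. The log2 fold changes of Jun and Junb were -0.035 (SE 0.13) and 0.17 (SE 0.13), and Fosb, at 0.825 to 1.397 CPM in WT, had 0.46 (SE 0.33).

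Atf3 was the member with the largest positive difference in both Cdk8 knockout groups. It was at 5.12, 5.22 and 6.15 CPM in WT, at 9.50, 9.83 and 9.77 CPM in Cdk8-/-, and at 9.08, 8.90 and 9.42 CPM in the double knockout. In both groups each library was above each WT library and the replicates lay close together. The log2 fold changes were 0.82 (SE 0.25, adjusted p = 0.0814, edgeR) and 0.73 (SE 0.25, adjusted p = 0.0618, edgeR), just short of the threshold. DESeq2 called both, with adjusted p of 0.026 and 0.0264, and the range of adjusted p over the 7 alternatives that keep all libraries of the groups compared was 0.0229 to 0.114 for Cdk8-/- and 0.0144 to 0.0744 for the double knockout. Without the 2 libraries with WT Cdk19 counts Atf3 was called in the double knockout (0.71, SE 0.15, adjusted p = 0.00926, edgeR). In the Cdk19-/- group Atf3 was at 8.09, 3.84 and 3.70 CPM. The high value there belongs to replicate 1, the library with WT levels of Cdk19.

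Dusp1 showed the same split among the libraries labelled Cdk19-/-. It was at 6.80, 6.60 and 6.29 CPM in WT and at 7.62, 3.71 and 3.90 CPM in those 3 libraries. Replicate 1 was above all WT libraries and the other 2 were below all of them. With all libraries the log2 fold change was -0.37 (SE 0.24, adjusted p = 0.64, edgeR), and without replicate 1 it was -0.77 (adjusted p = 0.0235, edgeR). In the double knockout Dusp1 was at 7.51, 6.85 and 7.28 CPM, every library above WT by a narrow margin, with a log2 fold change of 0.14 (SE 0.23).

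Ier2, Ier3 and Zfp36 were not called between any genotypes compared. Ier2 stood at 127, 125 and 141 CPM in WT and at 103, 108 and 116 CPM in the libraries labelled double knockout, with a log2 fold change of -0.26 (SE 0.094, adjusted p = 0.0745, edgeR). The groups did not overlap. Without the 2 libraries with WT Cdk19 counts that stand under a Cdk19 knockout label, the adjusted p was 0.0223. Zfp36 was at 100.1, 90.4 and 131 CPM in WT and at 142, 130.4 and 165 CPM in the double knockout, with overlap at 1 library of each and a log2 fold change of 0.44 (SE 0.18, adjusted p = 0.104, edgeR). It was called with no filter on low counts (adjusted p = 0.0324, edgeR) and with the replicate number as a block (0.0197), though same numbers did not pair the genotype libraries. Ier3 was at 22.5, 25.9 and 22.4 CPM against 21.4, 32.4 and 37.3 CPM, a log2 fold change of 0.36 (SE 0.18). Its groups overlapped, and without replicate 1 of the double knockout it was called (log2 fold change 0.57, adjusted p = 0.0206, edgeR). Without the 2 libraries with WT Cdk19 counts it had 0.19 (SE 0.17, adjusted p = 0.477, edgeR).

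Senexin B lowered Egr1 at both times. At 16 h it was at 66.2, 49.0 and 44.8 CPM in DMSO and at 12.9, 10.6 and 10.6 CPM with the inhibitor. At 24 h it was at 80.0, 62.7 and 60.0 CPM in DMSO and at 13.7, 13.5 and 14.0 CPM with Senexin B. All 6 treated libraries were below all 6 DMSO libraries, and the treated values hardly varied. The level was 4.67-fold lower at 16 h (log2 fold change -2.22, SE 0.15, adjusted p = 3.1e-06, edgeR, lower in 3 of 3 libraries) and 4.92-fold lower at 24 h (log2 fold change -2.30, SE 0.15, adjusted p = 6.66e-07, edgeR, lower in 3 of 3). Egr1 was at rank 3 of 15467 genes from the most lowered at 16 h and at rank 7 at 24 h. The difference between the effects at the 2 times was -0.074 (SE 0.20, adjusted p = 0.92, edgeR).

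Jun was higher with Senexin B. It was at 69.0, 63.5 and 67.1 CPM in DMSO and 88.8, 82.8 and 92.99 CPM with Senexin B at 16 h, and at 75.3, 65.3 and 72.7 CPM against 124, 90.4 and 98.0 CPM at 24 h. The groups did not overlap at either time. It rose by a log2 fold change of 0.41 (SE 0.10, adjusted p = 0.025, edgeR) at 16 h and 0.55 (SE 0.10, adjusted p = 0.00151, edgeR) at 24 h. The call at 16 h held without DMSO replicate 1, without Senexin B replicate 2 and with the replicate number as a block (adjusted p = 0.00153). It was lost without DMSO replicate 2 (adjusted p = 0.088), without DMSO replicate 3 (0.0574), without Senexin B replicate 1 (0.0693) or without Senexin B replicate 3 (0.102), all by edgeR, while the log2 fold change stayed between 0.37 and 0.46.

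Dusp1, the MAP kinase phosphatase, fell with Senexin B at 24 h. It stood at 13.3, 9.39 and 11.4 CPM in DMSO and 9.14, 7.12 and 7.35 CPM with the inhibitor at 16 h, and at 10.9, 8.32 and 10.8 CPM against 5.34, 3.92 and 2.68 CPM at 24 h. The groups did not overlap at either time, and the gap was wider at 24 h. The log2 fold change was -0.53 (SE 0.19, adjusted p = 0.119, edgeR) at 16 h, and -1.33 (SE 0.21, adjusted p = 0.000491, edgeR) at 24 h, which is 2.51-fold lower. With the replicate number as a block the value at 16 h was -0.53 with an adjusted p of 0.0159 by edgeR, and with no filter on low counts the adjusted p was 0.0161. The difference between the times was -0.80 (SE 0.29, adjusted p = 0.29, edgeR), and with the block -0.81 (SE 0.20, adjusted p = 0.0733, edgeR). Neither passed the threshold, so the effects are not shown to differ.

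Ier2 rose at 24 h. It was at 85.6, 84.9 and 85.8 CPM in DMSO and at 113, 104 and 106 CPM with Senexin B, with every treated library above every control. The log2 fold change was 0.33 (SE 0.086, adjusted p = 0.0114, edgeR) at 24 h and 0.14 (SE 0.086, adjusted p = 0.36, edgeR) at 16 h. Without DMSO replicate 1 it was called at 16 h too (0.25, adjusted p = 0.0426, edgeR). The difference between the times was 0.19 (SE 0.12, adjusted p = 0.54, edgeR). In the double knockout Ier2 had a negative value that did not pass the test.

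Junb was slightly lower in treated organoids. It was at 145, 115 and 114 CPM in DMSO and 104, 104 and 99.8 CPM with Senexin B at 16 h, and at 126, 114 and 105 CPM against 102, 96.5 and 94.8 CPM at 24 h. The treated libraries lay below the controls at both times, by a narrow margin. The log2 fold changes were -0.28 (SE 0.092, adjusted p = 0.0772, edgeR) and -0.24 (SE 0.092, adjusted p = 0.0671, edgeR). With the replicate block they were -0.27 and -0.24 with adjusted p of 0.0124 and 0.0118 by edgeR, both under the threshold. At 16 h Junb was also called by DESeq2 (adjusted p = 0.0487) and with no filter (0.0368, edgeR), and at 24 h in a fit of the 2 groups alone (0.0315, edgeR) and without DMSO replicate 3 (0.0478, edgeR).

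The other 5 members were not called with Senexin B at either time. Fos stood at 43.3, 44.3 and 35.5 CPM in DMSO and 40.5, 40.9 and 42.3 CPM with Senexin B at 16 h, a log2 fold change of 0.0057 (SE 0.11), and had -0.16 (SE 0.11, adjusted p = 0.30, edgeR) at 24 h. Zfp36 had 0.025 (SE 0.12) at 16 h and -0.0020 (SE 0.12) at 24 h, and Ier3 had -0.081 (SE 0.10) and -0.048 (SE 0.10). The treated and control libraries of these 3 genes overlapped. Atf3 had -0.34 (SE 0.15) and -0.018 (SE 0.15), where its value in the double knockout was positive. Fosb, on few reads, had 0.72 (SE 0.32) and 0.82 (SE 0.35), and it was called at 24 h without DMSO replicate 3 (1.18, adjusted p = 0.0448, edgeR).

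Of all members, 2 of 10 were called at 16 h, Egr1 lower and Jun higher, where 7.75% of all genes were called, and 4 of 10 at 24 h, Egr1 and Dusp1 lower and Jun and Ier2 higher, where 27.5% were called. With the replicate block 4 of 10 members and 2293 genes were called at 16 h in place of 1198, and 5 of 10 members and 5712 genes at 24 h in place of 4252. The median log2 fold change of the 10 members was -0.038 at 16 h and -0.033 at 24 h, beside -0.0062 and 0.0011 over all genes, and the called members were split between both directions. For the effect at 24 h minus that at 16 h, 0 of 10 members and 0% of genes (0 of 15467) were called by edgeR, with 1 member, Dusp1, and 1995 genes at an unadjusted p under 0.05; DESeq2 called 0 members and 66 genes.

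Between the DMSO groups, which differ in time in the solvent, 0 of 10 members were called by edgeR, beside 11.1% of all genes. At an unadjusted p under 0.05 there were 2 members, Ier3 with a log2 fold change of -0.31 (SE 0.10, adjusted p = 0.0594, edgeR) and Egr1 with 0.34 (SE 0.13, adjusted p = 0.113, edgeR). DESeq2 called 1, Ier3. By edgeR, Ier3 was called without replicate 2 of DMSO at 16 h (-0.42, adjusted p = 0.0158) and Egr1 without replicate 1 of it (0.53, adjusted p = 0.00902). With no filter both were called (adjusted p = 0.0223 and 0.0314, edgeR), as with the replicate block.

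**Figure D2:**
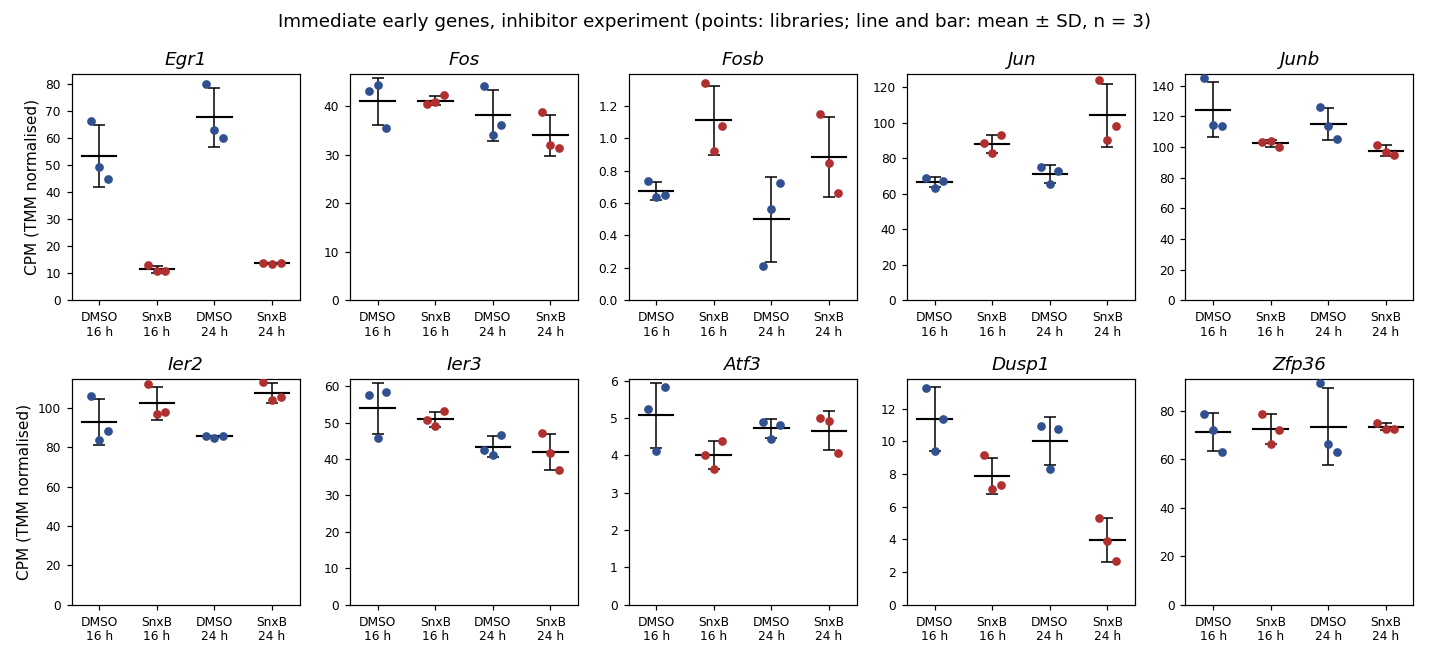
Normalised levels of the 10 immediate early genes in CPM (vertical axes, from 0) in each library of the inhibitor experiment; points are libraries, with red for Senexin B, and lines and bars are means and SD (n = 3). Egr1 with Senexin B lies between 10.6 and 14.0 CPM and in DMSO between 44.8 and 80.0 CPM, whereas Fos and Zfp36 overlap.

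Set side by side, the genotype and inhibitor values came from separate organoids and controls. Egr1 had -2.19 in the double knockout, -2.22 at 16 h and -2.30 at 24 h. Jun had -0.035, 0.41 and 0.55 in the same order, Dusp1 0.14, -0.53 and -1.33, and Atf3 0.73, -0.34 and -0.018. Egr1 was the one member called in all 3. The SEs of Egr1 (0.39 against 0.15) and Jun (0.13 against 0.10) were larger in the genotype experiment. Those of Dusp1 were alike (0.23 against 0.21 at 24 h), with values of opposite sign. Whether the effect on a member differs between the experiments was not tested. Without Egr1, the summed level of the other 9 members ran from 499.5 to 576 CPM in WT and from 521 to 634 CPM in the double knockout, and from 438 to 518 CPM in DMSO and 452 to 489 CPM with Senexin B at 16 h. These ranges overlap.

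**Figure D3:**
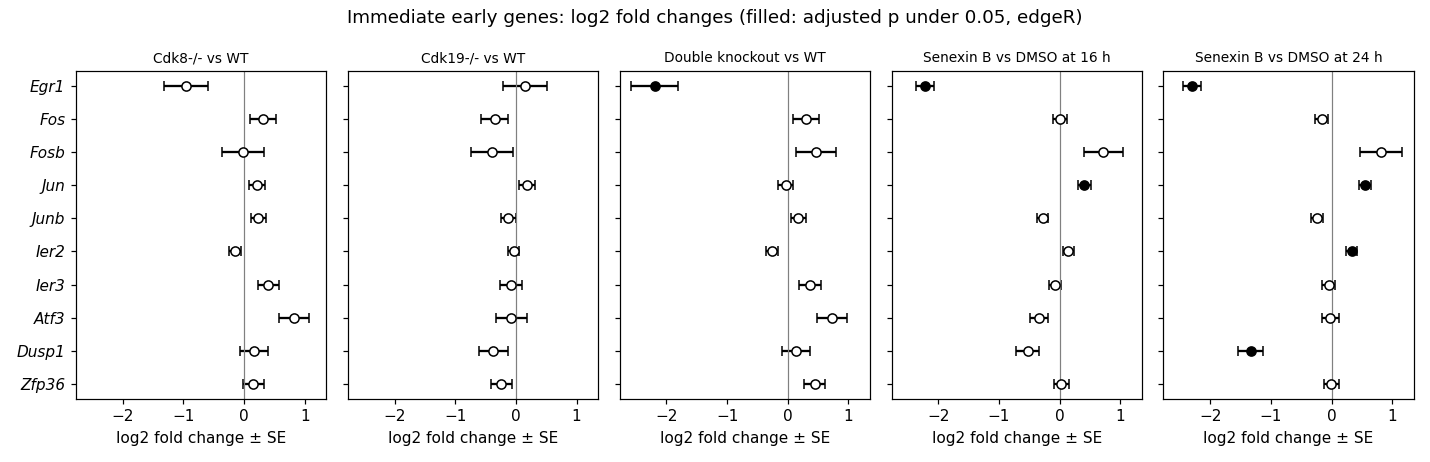
Log2 fold change (horizontal axis) of each immediate early gene in 5 comparisons, with bars of 1 SE on each side; filled points have an adjusted p under 0.05 by edgeR. Egr1 is filled at -2.19, -2.22 and -2.30 in the double knockout and in both Senexin B comparisons, and most other points lie within 1 of 0.

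Other genes of the immediate early class were followed from a list of 49, of which 45 were tested. Of these, 7 rose and 5 fell in the double knockout, where 17.3% of all genes were called. Those with the largest changes were Sgk1 (log2 fold change 1.94, SE 0.28), a serum and glucocorticoid induced kinase, the matricellular gene Ccn1 (1.37, SE 0.27) and the polo-like kinase Plk2 (1.30, SE 0.17) among the raised, and Myc (-0.63, SE 0.13) and Klf10 (-0.52, SE 0.11) among the lowered. The adjusted p by edgeR lay between 0.000809 and 0.00998 for these 5. In Cdk8-/- organoids 5 were higher, with Ccn2 (2.82, SE 0.72) and Ccn1 (1.43, SE 0.27) foremost, and 1, Klf10, was lower, beside 5.15% of all genes. With Senexin B 10 were higher and 2 lower at 16 h, beside 7.75% of all genes, and 17 higher and 6 lower at 24 h, beside 27.5%. Plk2 (0.83, SE 0.077) and Arc (0.87, SE 0.13) rose at 16 h and Csrnp1 (-0.92, SE 0.16) fell. Myc was 0.37 (SE 0.080) higher at 16 h and 0.38 (SE 0.080) higher at 24 h, opposite in sign to the double knockout. Egr2, the nearest relative of Egr1 on the list, had 0.59 (SE 0.39) in the double knockout and -0.12 (SE 0.31) with Senexin B at 24 h and was not called. The median of the list was 0.099 in the double knockout and 0.067 with Senexin B at 24 h, beside -0.0090 and 0.0011 over all genes.

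Genes upstream of the members were called in both directions. Of 14 EGF family ligands and receptors, 10 were tested in the genotype experiment, where 3 rose and 1 fell in the double knockout, and 11 in the inhibitor experiment, with 2 higher at 16 h, and 2 higher and 1 lower at 24 h. All genes were called at 17.3%, 7.75% and 27.5% in the same order, here and for the lists below. The EGF receptor ligand Areg rose in the double knockout (log2 fold change 1.16, SE 0.28, adjusted p = 0.0151, edgeR) and with Senexin B at 16 h (1.19, SE 0.11, adjusted p = 2.06e-05, edgeR), and it was called in Cdk8-/- too (1.07, SE 0.28, adjusted p = 0.0472, edgeR). Of 24 genes of the ERK and stress kinase cascades, 2 rose in the double knockout, Map2k1 and Map2k4, and with Senexin B 1 fell at 16 h, and 3 rose and 6 fell at 24 h. Among 13 SRF, ETS and CREB factors, Elk3 alone was called in the double knockout, higher, and Srf alone at 16 h, with 0.51 (SE 0.091, adjusted p = 0.00325, edgeR). At 24 h Srf was again higher, at 0.61 (SE 0.091), and Ep300, Elk1 and Crtc2 were lower. In the double knockout and at 16 h the share called in the kinase and factor lists was not above that of all genes.

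Feedback genes and targets of the same pathways followed. Of 17 MAP kinase feedback genes, 4 rose in the double knockout, 5 rose in Cdk8-/- (5.15% of all genes), and 6 rose at 16 h with Senexin B, among them Dusp4 (0.73, SE 0.084) and Spry1 (0.54, SE 0.094). At 24 h 6 rose and 1, Spred2 (-0.49, SE 0.065), fell. Cytoskeletal targets of SRF, 14 of 15 tested in the genotype experiment and 11 in the inhibitor experiment, counted 8 that rose and 1 that fell in the double knockout, 5 higher in Cdk8-/-, 8 higher at 16 h and 7 higher at 24 h. Flna, an actin cross-linker, rose with Senexin B at 16 h (1.10, SE 0.10) and in the double knockout (1.18, SE 0.29). The median of that list was 0.42 in the double knockout and 0.32 at 16 h, beside -0.0090 and -0.0062 over all genes.

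Partners and decay factors were mixed. Of 10 other AP-1 and leucine zipper genes tested, 3 rose in the double knockout, Batf2, Mafk and Mafg, and with Senexin B at 24 h Fosl1 and Jund were higher and Atf7 and Atf2 lower. Of 11 genes for mRNA decay through AU-rich elements, 5 fell in the double knockout, among them Zfp36l2 (-0.48, SE 0.084) and Zfp36l1 (-0.44, SE 0.13), relatives of Zfp36, and 1, Zfp36l2, rose and 2 fell with Senexin B at 24 h. Zfp36l1 and Zfp36l2 also stand on the list of other immediate early genes, so the counts of these lists overlap. Of 8 genes for the Mediator kinase module and MED23, 7 were tested, and 5 were lower with Senexin B at 24 h, with Med13 (-0.73, SE 0.11) and Med12 (-0.46, SE 0.12) foremost. In the double knockout 0 of the 7 were called by edgeR, with 1 at an unadjusted p under 0.05, and DESeq2 called 0. For the partners and decay factors at 24 h, the shares called were 4 of 10 and 3 of 11 beside 27.5% of all genes.

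Several of these counts depended on the 2 libraries with WT Cdk19 counts. Without them 19.0% of all genes were called in the double knockout, with 14 of 45 other immediate early genes in place of 12 and 4 of 14 cytoskeletal targets in place of 9. Feedback genes were 2 of 17 in place of 4, EGF family genes 3 of 11 in place of 4 of 10, and kinase cascade genes 3 of 24 in place of 2. The factor list kept a count of 1, with Mrtfb lower in place of Elk3. AP-1 partners were 2 of 10 in place of 3, decay genes 4 of 11 in place of 5, and the Mediator list 1 of 7, Cdk19 itself. The 2 libraries were left out for their Cdk19 counts, so a call of Cdk19 without them follows from that choice. Flna had 0.85 (SE 0.28, adjusted p = 0.0569, edgeR) and was not called, while Sgk1, Ccn1, Plk2, Myc, Klf10 and Areg stayed called. In Cdk19-/-, where 4.21% of all genes were then called, Klf4 was the 1 called of 45, lower. The Mediator list had 2 of 7 called, 1 higher and Cdk19 lower, the latter again through the choice of libraries. The integrated stress response list had 1 of 10, lower. Stem cell markers had 2 of 4 higher. Markers of enterocytes (2 of 5), epithelium (2 of 7) and goblet cells (1 of 4) were lower. Mrtfb and Klf4 were named after their values were seen.

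Signs of stress and handling were read from 2 further lists, since both can move immediate early genes. Of 10 heat shock and handling genes tested in the genotype experiment, 0 were called in the double knockout by edgeR, with 5 at an unadjusted p under 0.05, and DESeq2 called 1. Their summed level was 984 to 1053 CPM in WT and 814 to 938 CPM in the double knockout, with no overlap, while their median log2 fold change was positive at 0.18. With Senexin B 3 of 9 were higher at 24 h, led by Hspa1b (0.78, SE 0.14). The integrated stress response list, which shares targets with Atf3, counted 1 higher and 2 lower of 10 in the double knockout, 1 lower at 16 h, and 1 higher and 2 lower at 24 h. In the double knockout 2 were called without the 2 libraries with WT Cdk19 counts. Its summed level was 667 to 715 CPM in WT and 563 to 650.4 CPM in the double knockout, and 606 to 638 CPM in DMSO and 649 to 673 CPM with Senexin B at 24 h, so it was lower in the former and higher in the latter. Over time in the solvent it was 751 to 974 CPM in DMSO at 16 h and 606 to 638 CPM in DMSO at 24 h, where 5 of 10 were lower, beside 11.1% of all genes. The part of either list in the Egr1 values was not tested.

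Cell type markers differed between the groups as well. Lgr5, the crypt stem cell receptor, was lower in the double knockout (log2 fold change -1.23, SE 0.15) and with Senexin B at 24 h (-0.97, SE 0.12). Of the 4 stem cell markers 3 were lower in the double knockout and Lgr5 alone at 24 h. Their sum was 2243 to 2579 CPM in WT and 1588 to 1813 CPM in the double knockout, but overlapped at 24 h, with 1583 to 1994 CPM in DMSO and 1573 to 1847 CPM with Senexin B. The 4 Paneth cell markers summed to 810.4 to 1059 CPM in WT and 1663 to 3548 CPM in the double knockout, but to 1986 to 2105 CPM in DMSO and 921 to 1269 CPM with Senexin B at 24 h. Enterocyte markers summed to 4917 to 4992 CPM in WT and 6371 to 9230.4 CPM in the double knockout, with Sis the most abundant in replicate 1 of each, and to 2509 to 2861 CPM in DMSO and 2270.4 to 2484 CPM with Senexin B at 24 h. At 24 h the 5 enterocyte markers were split, with Sis (-0.92, SE 0.17) and Krt20 (-0.82, SE 0.23) lower and Apoa1 (0.51, SE 0.17) and Fabp1 (0.27, SE 0.072) higher. Goblet cell markers overlapped between WT and the double knockout, at 1975 to 2800 and 2301 to 3811 CPM, although Muc2 rose (1.36, SE 0.16), and they were at 3031 to 3534 CPM in DMSO and 2463 to 2836 CPM with Senexin B at 24 h. In the double knockout 2 of 4 Paneth markers, in place of 4, were called without the 2 libraries with WT Cdk19 counts.

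The same sums were read in the other groups. At 16 h all 4 overlapped between DMSO and Senexin B, with 1364 to 2130 and 1611 to 1879 CPM for stem cell, 1354 to 1985 and 1090 to 1403 CPM for Paneth, 2710.1 to 3326 and 2776 to 2825 CPM for enterocyte, and 2326 to 3116 and 2370 to 2670.5 CPM for goblet cell markers. In Cdk8-/- the Paneth sum of 2505 to 3436 CPM, the enterocyte sum of 5045 to 5884 CPM and the goblet sum of 2847 to 3384 CPM were above WT, and the stem cell sum overlapped it. In Cdk19-/- the stem cell sum of 3012 to 4878 CPM was above WT and the enterocyte sum of 3072 to 3823 CPM below it, while the Paneth and goblet sums overlapped. The part of cell composition in the Egr1 values was not tested in any group.

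The called members lie apart in the genome (GRCm38). Egr1 (ENSMUSG00000038418) spans chr18:34859823-34864984, Jun (ENSMUSG00000052684) chr4:95049034-95052222, Ier2 (ENSMUSG00000053560) chr8:84661331-84662852 and Dusp1 (ENSMUSG00000024190) chr17:26505590-26562128. By whole gene span, introns included, an annotated gene overlaps Jun (Junos), Junb (Prdx2), Atf3 (Gm24748), Dusp1 (Ergic1 and Gm8225) and Zfp36 (Gm44710) on the opposite strand. Whether exons overlap was not checked. In the inhibitor experiment, which keeps strand, between 92.7% (Junb) and 98.8% (Ier3) of a member's strand-assigned reads were on its own strand, and Egr1, with no such neighbour, had 95.8%. In the genotype experiment the shares lay between 48.3% and 57.6%. Any reads from exonic bases that these 5 members share with their partners thus cannot be told apart there.

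Within groups, most pairs of members had positive correlations, in part through 1 library. After each library's value was taken relative to its group mean, 44 of 45 pairs of members had a positive correlation over the 12 genotype libraries, with a median r of 0.56, and 39 of 45 over the 12 inhibitor libraries, with a median of 0.38. Among pairs of other genes of at least 5 CPM the median was 0.0070 and 0.0081. All 10 members were highest in replicate 1 of the Cdk19-/- group, the library with WT Cdk19 counts. Without it, again chosen after seeing the data, 33 of 45 pairs were positive, with a median of 0.31, and without both such libraries 30 of 45, with a median of 0.32. With all libraries Egr1 and Jun had r = 0.90 in the genotype experiment, and Egr1 and Junb r = 0.88 in the inhibitor experiment. Across all 12 libraries with the group differences left in, Egr1 had a median r of -0.40 with the other 9 members in the genotype experiment and 0.061 in the inhibitor experiment. In the inhibitor experiment replicate 1 was highest for 7 of 10 members in DMSO at 16 h and for 7 at 24 h. With Senexin B it was highest for 5 at 16 h and for 9 at 24 h. Group means were taken out of the within-group values, but the replicate number was not. Each correlation describes libraries that share depth, handling and group, and no p is given.

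Outside the list, the genes whose log2 CPM over 12 libraries was most like the mean of the standardised members were Tspan8 (r = 0.92), Tbrg1 (0.91), Ubl7, Ly6d (both 0.90) and 2310011J03Rik (0.90) among 11450 genes in the genotype experiment. In the inhibitor experiment they were 2010320M18Rik (0.92), 2810410L24Rik (0.90), Idh3b, Arhgap27 and Tmem19 (each 0.89) among 10541 genes. These genes were picked as the highest of many.

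Short motifs were sought on both strands in the 250 bases before each start, since the same factors are known to act at several of these promoters. RefSeq promoter windows were matched for 8 of the 10 members; Egr1 and Ier2 had no entry in the table. The cAMP response element TGACGTCA was found in Dusp1 alone of the 8, against 1.55% of 32851 promoters, and its part TGACG, which overlaps it, in 5 of 8, namely Fos, Fosb, Junb, Atf3 and Dusp1, against 17.8%. The CArG box, the motif of SRF, was found in Zfp36 alone (1.47% of promoters) and the EGR motif GCGGGGGCG in Fosb and Zfp36 (2.57%). The AP-1 motif TGACTCA was found in 0 of 8 (4.46%). A match describes letters in this window and is no measure of binding.

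The 150 bases before the start are printed for 4 promoters to set those members that were called with Senexin B beside those that were not. Dusp1 and Jun were called at 24 h, and Zfp36 and Fos were not. They lie at chr17:26508473-26508622 (minus strand), chr4:95052223-95052372 (minus strand), chr7:28379229-28379378 (minus strand) and chr12:85473740-85473889 (plus strand) of GRCm38.p6, and read 5′ to 3′ on the strand of the gene. Capitals mark the CRE in Dusp1, and the EGR motif and then the CArG box in Zfp36. Jun and Fos hold no exact match to these 3, nor to the full AP-1 motif. Near matches, such as tgacatca in Jun beside the CRE TGACGTCA, were not searched for, nor were sites more than 250 bases before the start.
Dusp1: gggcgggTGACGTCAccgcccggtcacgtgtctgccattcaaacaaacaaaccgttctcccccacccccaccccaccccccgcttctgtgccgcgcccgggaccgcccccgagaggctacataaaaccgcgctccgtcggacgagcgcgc
Jun: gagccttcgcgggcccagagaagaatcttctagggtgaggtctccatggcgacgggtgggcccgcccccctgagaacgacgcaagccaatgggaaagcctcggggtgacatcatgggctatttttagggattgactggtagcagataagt
Zfp36: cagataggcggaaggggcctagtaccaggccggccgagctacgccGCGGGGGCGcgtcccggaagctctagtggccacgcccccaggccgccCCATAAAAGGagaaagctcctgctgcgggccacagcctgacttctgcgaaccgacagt
Fos: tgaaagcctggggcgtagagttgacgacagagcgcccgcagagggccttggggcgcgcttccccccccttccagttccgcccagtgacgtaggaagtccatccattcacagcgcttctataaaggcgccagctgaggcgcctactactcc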

How the data were processed

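Organoid RNA was aligned with STAR 2.6.0c to GRCm38.p6, per the submitters' processing notes. The deposited tables hold raw read counts per gene, regardless of strand and for each strand; the last column was used, which holds the reads of the gene's own strand in the inhibitor libraries. Members and gene lists were chosen with earlier results of these data known. The 2 experiments were fitted separately, each over 12 libraries, with edgeR 4.0.16 (TMM, filterByExpr, quasi-likelihood test, Benjamini-Hochberg adjustment over all genes tested). SE is the absolute log2 fold change over the square root of F. CPM use TMM-scaled library sizes, and exon lengths come from GENCODE. Named genes are all members, Cdk8, Cdk19, up to 3 called genes per list, comparison and direction with the largest changes, and the 5 genes per experiment most like the members among those of at least 5 CPM on average. Egr2 was named after its values were seen, as were values of rule-named genes in further comparisons. Same-numbered libraries, a number from the labels, had r from 0.101 to 0.303 between Senexin B and DMSO at 16 h and from 0.137 to 0.377 at 24 h, highest for replicate 1, and differently numbered ones reached 0.154 and 0.147. Values with the number as a block are given there, by a rule on the same-numbered r alone. Alternatives were DESeq2 1.42.0, its size factors, other filters, the unstranded column, fits of 2 groups and each library left out. The fit was tested on simulated data.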

Additional observations from a re-analysis of the deposited data

How the results depend on the processing

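Of 1304 log2 fold changes of members under the alternatives, 1233 stayed called, or stayed uncalled within 1 SE. A further 32 stayed uncalled and moved by more, 35 gained a call and 4 lost one (Jun at 16 h), and no called value changed sign. Egr1 stayed called in the double knockout (log2 fold change -2.53 to -1.95 with each library left out) and with Senexin B (-2.34 to -2.04 at 16 h, -2.38 to -2.16 at 24 h) under every alternative run.

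Genes called with DESeq2 numbered 1294 in Cdk8-/-, 309 in Cdk19-/-, 407 for the double knockout against Cdk8-/-, 490 for additivity and 66 for the time difference, with 1 member in Cdk8-/-, 2 in the double knockout, 3 at 16 h and 1 between DMSO times. Without a filter they numbered 1269, 479, 358, 566 and 121 in the same order, with 2 members in Cdk8-/-, 3 in the double knockout, 1 each for the double knockout against Cdk8-/- and for additivity (Egr1), 4 at 16 h and 2 between DMSO times. With at least 10 counts in every library 1 gene was called for the double knockout against Cdk8-/- and 0 for additivity, with fewer genes tested, and Fosb was not tested in the inhibitor experiment. The unstranded column gave 9 for additivity. With the 2 groups alone 15 were called in Cdk19-/-, 0 for the double knockout against Cdk8-/-, 725 at 16 h and 385 between DMSO times, with 1 member in Cdk8-/-, 2 in the double knockout and 5 at 24 h. The replicate block gave 1 for the double knockout against Cdk8-/-, 8 for additivity, 2293 at 16 h, 3281 between DMSO times and 60 for the time difference, with 2 members in the double knockout (Egr1, Zfp36), 4 at 16 h, 5 at 24 h and 2 between DMSO times; same numbers did not pair the genotype libraries, nor the DMSO times (r from -0.05 to 0.37). Without both libraries with WT Cdk19 counts, 666 genes and 1 member (Dusp1) were called in Cdk19-/-, 3 members in the double knockout, 22 genes against Cdk8-/- and 728 for additivity.

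Leaving out each library gave 196 to 699 genes in Cdk8-/-, 0 to 521 in Cdk19-/-, 1348 to 2452 in the double knockout, 3 to 839 against Cdk8-/-, 0 to 467 for additivity, 657 to 1819 at 16 h, 2656 to 3805 at 24 h, 434 to 2296 between DMSO times and 0 to 26 for the time difference. Members called ran from 0 to 1 in Cdk8-/-, Cdk19-/-, against Cdk8-/- and between DMSO times, 1 to 2 in the double knockout, 1 to 3 at 16 h and 4 to 6 at 24 h. Apart from fewer libraries or genes tested, the cause was not tested. Of the members, Fosb, Atf3 and Dusp1 had the fewest reads in both experiments.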

Other observations

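Tuft cell markers, a rare chemosensory type of the epithelium, summed to 40.3 to 62.6 CPM in WT and 13.7 to 34.8 CPM in the double knockout, and to 19.6 to 22.2 CPM in DMSO and 24.3 to 28.8 CPM with Senexin B at 24 h. Pou2f3 fell in the double knockout (log2 fold change -1.66, SE 0.32, adjusted p = 0.005, edgeR). Endothelial markers summed to 1.14 to 3.02 CPM in WT and 3.69 to 7.08 CPM in the double knockout.

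Krt20, a marker of mature epithelium, rose in the double knockout (1.88, SE 0.32, adjusted p = 0.0026, edgeR) and fell with Senexin B at 24 h (-0.82, SE 0.23, adjusted p = 0.0152, edgeR). Of the same marker list, Apoa1 (0.51, adjusted p = 0.0418, edgeR) and Fabp1 (0.27, adjusted p = 0.0139, edgeR) rose at 24 h.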
